A study of Mus musculus with 34 samples.

Results

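The genes described here are 10 regulators of mouse spermatogonia and of the step into meiosis, taken by name from 21887 protein-coding genes of the mouse build GRCm38 (mm10): Zbtb16, Gfra1, Nanos2, Foxo1, Nanos3, Sohlh1, Sohlh2, Kit, Dazl and Stra8. All 10 names were found in the gene table, and for each gene every call that touched the gene or the 1 kb beyond either end was collected. No measured value was used to choose them. The data come from ATAC-seq, an assay that uses Tn5 transposase to insert sequencing adapters into accessible DNA, with 34 libraries in 12 groups. Germ cells were sampled at 4 stages in 3 backgrounds. MS stands for the meiotic fraction, RS for round spermatids, ES for spermatids that are elongating or condensing, and Sp for sperm from the cauda epididymis. The backgrounds are SV129 mice, C57BL6 mice that are GCN5+/+ (WT), and C57BL6 mice labelled GCN5-/-, in which homozygous floxed alleles are combined with Stra8-CRE (cKO). SV129 had 4 libraries each at MS, RS and ES (2 biological replicates with 2 technical repeats) and 6 at Sp, and each WT or cKO group had 2. SV129 mice were adults of 8 to 12 weeks, with 11 pooled per collection. The age of the C57BL6 mice, and whether WT carried floxed alleles or the Cre, are not stated in the sources used here. The cKO removes the gene only in cells that switch on the Stra8 promoter, so spermatogonia before that point may keep an intact Gcn5, which is encoded by Kat2a. Fractions of at least 85% purity were pooled for MS, RS and ES.

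Each group is represented by 1 list of nucleosome calls, each 150 bp wide, and 1 list of subnucleosome peaks, which come from short fragments and mark open sites. There are no values per library, so the values below carry no replicate error and conditions were not tested against each other. The difference between the SV129 and WT lists, both from mice with intact Gcn5, is set beside each difference between cKO and WT as a yardstick that mixes strain, depth and library number. Read depth is unknown, and the lists differ greatly in length. The subnucleosome lists at MS hold 33060 (SV129), 35822 (WT) and 16087 (cKO) peaks, and those at RS 29243, 56480 and 4075. They hold only 473 to 787 at ES, and 10715, 3024 and 1127 at Sp. The nucleosome lists hold 199111 to 591189 calls at MS, RS and ES, but at Sp 13615 (SV129), 8628 (WT) and 347951 (cKO). Nucleosome calls overlap one another, often with centres 20 bp apart, so a number of calls is not a number of nucleosomes. In such bulk fractions, a site open in a few cells and a site open weakly in all cells cannot be told apart.

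Spermatogonia are the mitotic cells at the base of the seminiferous tubule. Undifferentiated spermatogonia renew themselves in response to GDNF from Sertoli cells, which they sense through Gfra1 and Ret, while retinoic acid turns them into differentiating, Kit-positive cells and later induces Stra8 as meiosis begins. Most, but not all, of these genes are switched off after meiosis begins, and the fractions studied here were taken from meiosis onward. Expression was not measured here, so whether a given gene was still in use in a fraction is not known.

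Open sites at or just before the starts of these genes lay in promoters above the median GC share for 4 of the 5 genes that had one. The sequences below run from 250 bases before to 30 bases from the annotated start, 5′ to 3′ along the gene, from RefSeq on GRCm38.p6. In the first 5, capitals mark the bases that the WT RS peaks covered. They are shown because these are the only starts with a peak on them or within 250 bases before them in any list, among the 9 of the 10 genes with an annotated start. The stretches are chr3:52268087-52268366 on the plus strand (Foxo1), chr3:55181794-55182073 on the plus strand (Sohlh2), chr5:75574737-75575016 on the plus strand (Kit), chr17:50293591-50293870 on the minus strand (Dazl) and chr6:34920698-34920977 on the plus strand (Stra8).
Foxo1: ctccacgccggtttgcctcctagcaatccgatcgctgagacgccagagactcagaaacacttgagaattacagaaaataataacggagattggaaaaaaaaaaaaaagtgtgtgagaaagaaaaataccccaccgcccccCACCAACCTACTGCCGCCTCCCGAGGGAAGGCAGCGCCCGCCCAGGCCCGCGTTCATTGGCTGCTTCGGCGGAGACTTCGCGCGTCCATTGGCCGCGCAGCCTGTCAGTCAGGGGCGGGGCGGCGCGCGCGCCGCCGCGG
Sohlh2: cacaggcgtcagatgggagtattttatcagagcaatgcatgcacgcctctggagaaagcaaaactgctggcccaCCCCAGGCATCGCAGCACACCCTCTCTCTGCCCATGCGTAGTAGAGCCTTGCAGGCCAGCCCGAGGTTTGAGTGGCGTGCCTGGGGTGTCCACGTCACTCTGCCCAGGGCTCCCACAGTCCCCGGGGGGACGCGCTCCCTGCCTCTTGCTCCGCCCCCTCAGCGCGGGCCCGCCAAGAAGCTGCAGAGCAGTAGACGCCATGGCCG
Kit: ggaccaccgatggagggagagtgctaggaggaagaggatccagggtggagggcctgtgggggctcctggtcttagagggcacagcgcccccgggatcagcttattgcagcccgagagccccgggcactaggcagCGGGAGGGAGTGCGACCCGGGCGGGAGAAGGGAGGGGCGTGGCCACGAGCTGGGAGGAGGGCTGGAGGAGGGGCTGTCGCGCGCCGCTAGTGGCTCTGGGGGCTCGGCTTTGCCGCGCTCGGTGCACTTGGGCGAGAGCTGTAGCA
Dazl: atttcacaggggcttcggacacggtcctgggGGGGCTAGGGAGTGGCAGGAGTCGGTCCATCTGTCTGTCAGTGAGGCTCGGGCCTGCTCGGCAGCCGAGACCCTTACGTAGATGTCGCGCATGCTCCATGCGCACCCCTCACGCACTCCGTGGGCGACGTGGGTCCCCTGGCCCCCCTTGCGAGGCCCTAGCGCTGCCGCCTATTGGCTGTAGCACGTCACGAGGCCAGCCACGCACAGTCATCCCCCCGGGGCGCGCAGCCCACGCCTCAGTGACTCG
Stra8: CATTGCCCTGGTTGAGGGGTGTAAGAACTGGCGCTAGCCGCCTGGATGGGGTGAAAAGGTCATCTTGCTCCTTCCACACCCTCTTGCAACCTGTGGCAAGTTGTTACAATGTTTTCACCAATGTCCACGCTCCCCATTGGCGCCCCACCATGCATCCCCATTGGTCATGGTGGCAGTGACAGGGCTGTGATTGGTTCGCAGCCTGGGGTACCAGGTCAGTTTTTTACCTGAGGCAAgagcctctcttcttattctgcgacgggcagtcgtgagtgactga
Sohlh1, at chr2:25847219-25847498 on the minus strand, is shown in contrast because its start had no peak in any list. Its capitals mark CACGTG, the E-box letters read by many basic helix-loop-helix factors, a family to which the Sohlh1 and Sohlh2 proteins belong.
Sohlh1: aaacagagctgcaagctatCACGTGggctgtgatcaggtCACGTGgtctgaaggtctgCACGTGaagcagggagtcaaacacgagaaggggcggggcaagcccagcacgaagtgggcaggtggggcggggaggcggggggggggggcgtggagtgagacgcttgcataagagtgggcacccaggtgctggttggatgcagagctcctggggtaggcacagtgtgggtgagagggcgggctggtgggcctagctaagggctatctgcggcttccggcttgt

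RefSeq promoters, from 250 bases before to 50 after the start, were at hand for 9 of the 10 genes. The entry for Zbtb16 is missing. The GC share was 69.0% at Kit, 68.7% at Dazl, 64.7% at Sohlh2 and 61.3% at Foxo1, above the median of 56.3% over 17492 promoters. These 4 promoters held 20, 28, 17 and 31 CpG dinucleotides, against a median of 13. In the same order, 63.9%, 81.7%, 56.9% and 86.6% of promoters held fewer, so Sohlh2 and Kit lay nearer the middle. Stra8, whose peak ended 15 bp before its start, lay near the median with 55.7% GC and 10 CpG. Of the genes without a peak there, Gfra1 had 12 CpG, Nanos3 3 and Nanos2 none, while Sohlh1 had 63.3% GC and 14 CpG. A promoter above the median GC share thus did not always have a peak.

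Short motifs were searched on both strands of these promoters. Position 0 is the start base. The Stra8 promoter holds AGGTCA, the core letters of many nuclear receptor sites, at -194 and -38, and 14.5% of all promoters hold at least 1 copy. Both copies lie in the stretch that the WT RS peak covers. It also holds the CCAAT box, the letters bound by NF-Y, at -133, -115, -91 and -61, a motif found in 39.0% of promoters. The Sohlh1 promoter holds CACGTG at -231, -211 and -192, a motif in 7.90% of promoters, and AGGTCA at -215, which overlaps the CACGTG at -211. GGGCGG, the GC box bound by Sp1-type factors, occurs in 46.3% of promoters and was found 5 times at Foxo1, 3 times at Sohlh1 and once each at Sohlh2, Kit and Nanos3. Nanos2 holds AGGTCA at 21 and CCAAT at -134 and -118. CCAAT also occurs at Foxo1 (-162, -55 and -23), Dazl (-47) and Gfra1 (-73). Gfra1 further holds CAGCTG, another E-box, at -90, a motif in 15.1% of promoters. The letters of CREB-type (TGACGTCA), NRF1 and E2F (TTTCGCGC) sites occur in 2.34%, 1.32% and 0.446% of promoters and were not found in these 9 windows. Each match describes letters only.

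At MS and RS, 7 of the 10 genes had a subnucleosome peak in at least 1 list, and at ES none had. The share of all genes with a peak in at least 1 list of a stage was not computed, so shares are given per list. A peak at MS was listed for 6 genes by SV129, 6 by WT and 3 by cKO, while 60.5%, 63.4% and 44.9% of all genes had one. At RS the counts were 6, 7 and 1, against 55.8%, 64.1% and 14.9% of all genes. The ES lists reach only 0.964%, 0.507% and 0.535% of all genes, so a count of 0 among 10 is near the background. At Sp the counts were 1, 1 and 0, against 31.6%, 11.6% and 4.15% of all genes. Nanos2, Nanos3 and Sohlh1 had none in any of the 12 lists, as had 26.9% of all genes. All of these 3 are under 5 kb long, and of the genes under that length 61.2% had none. Counted within 1 kb of the start, for the 9 genes with an annotated one, a peak at MS was listed for 3 genes by SV129, 4 by WT and 1 by cKO (49.5%, 52.2% and 37% of all genes). For RS these counts were 3, 5 and 1 (44%, 50.7% and 12.7%). No gene of the 10 had a peak there at ES (0.0915%, 0.0686% and 0.0858% of all genes) or at Sp (23.8%, 8.92% and 3.69%).

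**Figure D1:**
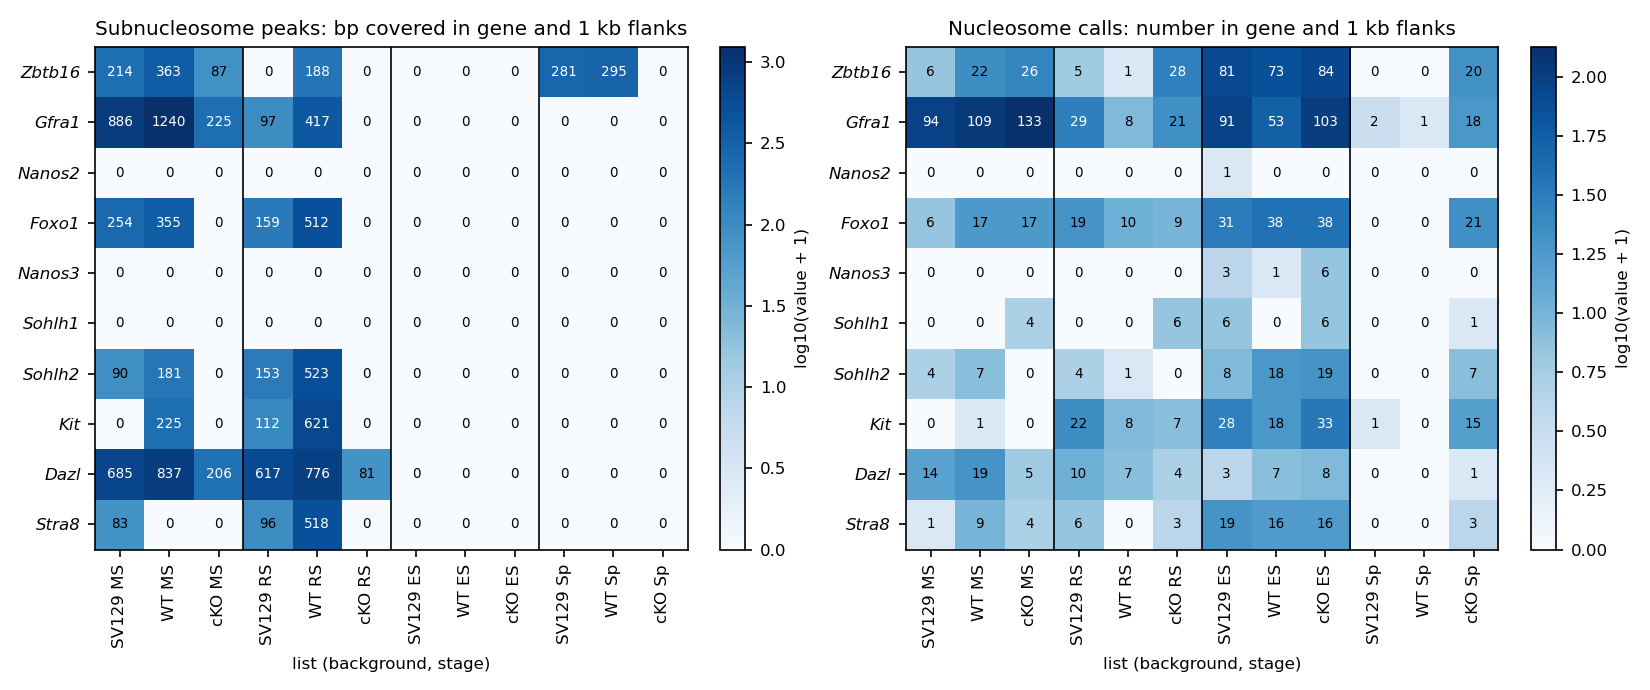
Heat maps of the bases covered by subnucleosome peaks and of the number of nucleosome calls in each of the 10 genes with 1 kb flanks, coloured as log10(value + 1), with the 12 lists as columns ordered by stage and background. Peaks fill only MS, RS and, for Zbtb16 alone, Sp, whereas nucleosome calls reach every gene in the SV129 ES list and 8 of 10 in the cKO Sp list.

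Among regulators of undifferentiated spermatogonia, Gfra1 had the most open sites. Gfra1, the co-receptor for GDNF (chr19:58235581-58455946), held 11 merged sites, and the nearest to its start was 1700 bp inside the gene, found in SV129 MS alone. Its peaks covered 886 bp in SV129, 1240 bp in WT and 225 bp in cKO at MS. At RS they covered 97 bp, 417 bp and 0 bp. The WT value was the highest at both stages and the cKO value the lowest. The leading sites form a pair at the far end of the gene, 194631 and 194169 bp from the start. The farther one, chr19:58260455-58260767, covered 187 bp in SV129 MS and 313 bp in WT MS and was absent from cKO. The nearer one, chr19:58261051-58261229, covered 179, 157 and 133 bp in the 3 MS lists, so it was present in cKO too, and 144 bp in WT RS. A further site, chr19:58358550-58358667, covered 100, 118 and 92 bp at MS. Gfra1 thus kept 2 sites in cKO at MS and none at RS. The gene Gm46650 overlaps the Gfra1 region, taken with its 1 kb flanks, and a call in the overlap belongs to both.

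Nucleosome calls at Gfra1 gathered around the same far pair of sites at MS. At MS the gene held 94 calls (SV129), 109 (WT) and 133 (cKO). Of these, 23, 25 and 17 were centred in the 2 kb between 194 and 196 kb from the start, the fullest 2 kb bin of the gene in each of these lists, or 24.5%, 22.9% and 12.8%. At RS that stretch held 2 of 29 calls in SV129 and none of the 8 in WT or 21 in cKO. At ES the gene had 91, 53 and 103 calls. At Sp it had 2, 1 and 18. The cluster is therefore a feature of the MS lists, in all 3 backgrounds.

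**Figure D2:**
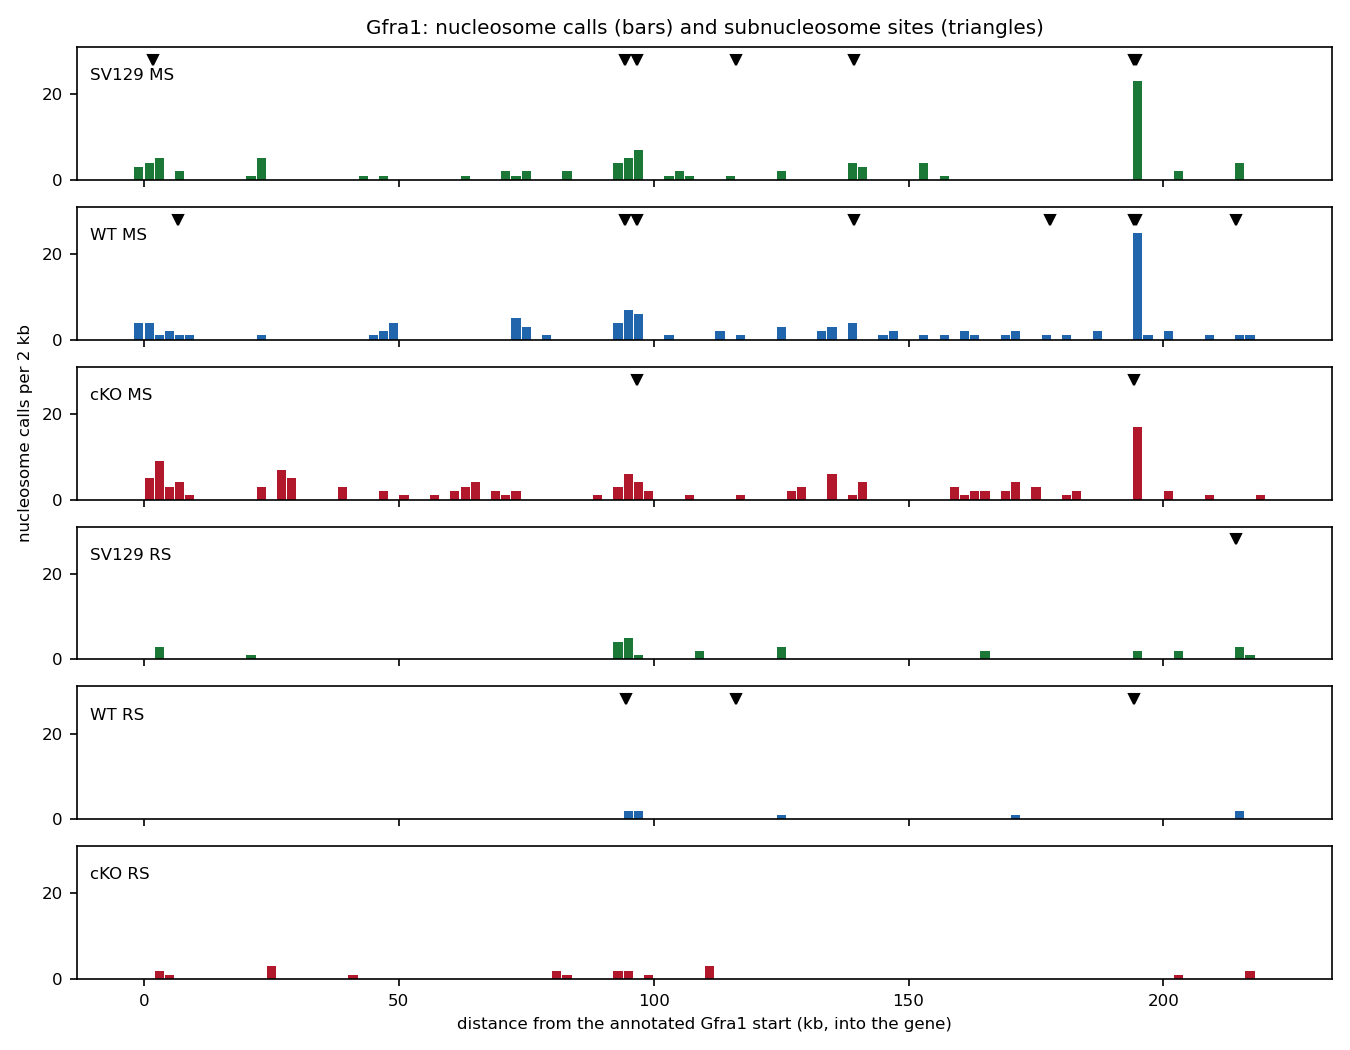
Number of nucleosome calls of Gfra1 in 2 kb bins by distance from its start, for MS and RS lists of SV129, WT and cKO, with the positions of the subnucleosome sites marked. The bin from 194 to 196 kb holds 23, 25 and 17 calls in the 3 MS lists and at most 2 in any RS list.

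Zbtb16, the transcription factor PLZF that sustains self-renewal (chr9:48651797-48836225), was the only one of the 10 genes with peaks in sperm. At MS its peaks covered 214 bp in SV129, 363 bp in WT and 87 bp in cKO. At RS only WT had any, 188 bp. At Sp they covered 281 bp in SV129 and 295 bp in WT, and none in cKO. Both intact sperm values lay between the SV129 and WT values at MS. The sperm sites were not the MS sites. One, chr9:48723606-48723900, covered 144 bp in SV129 Sp and 295 bp in WT Sp and lay in no list of another stage, and another, chr9:48740296-48740432, was in SV129 Sp alone. Such sites, found only at Sp, were 2 of the 32 merged sites of the 10 genes (6.25%) and 7.04% of the 42323 sites of all genes. The MS site kept in cKO, chr9:48744277-48744511, covered 127, 235 and 87 bp in the 3 MS lists. The gene Gm32280 overlaps the Zbtb16 region, taken with its 1 kb flanks.

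Foxo1, a transcription factor needed by spermatogonial stem cells (chr3:52268337-52350109), was open at its start in the intact lists. The start site, chr3:52268227-52268591, covered 135 bp in SV129 and 355 bp in WT at MS and 159 and 271 bp at RS, and was absent from cKO at both stages. Over the whole gene the peaks covered 254, 355 and 0 bp at MS and 159, 512 and 0 bp at RS. The 2 intact lists thus differed from each other by more than the smaller value at RS, and cKO had none.

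Nucleosome calls stood on both sides of the Foxo1 start at MS in all 3 backgrounds, including cKO, in which no peak was called between them. At MS the calls centred 100 to 250 bp before the start numbered 3 in SV129, 3 in WT and 3 in cKO, none were centred within 99 bp of it, and 2, 3 and 2 were centred 100 to 250 bp after it. At RS the counts were 2, 0 and 3 in SV129, 2, 0 and 4 in WT, and 0 throughout in cKO. Calls on both sides were found at 19.5%, 23.7% and 12.6% of all starts at MS in SV129, WT and cKO, and at 12.3%, 13.2% and 1.6% at RS. In sperm the intact lists had no call at Foxo1, whereas cKO had 21 in the gene, of which 2 lay before, 2 within and 4 after in the same windows. There the centre was thus not free of calls, and 2.66% of all starts had calls on both sides in cKO Sp.

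Nanos2, an RNA-binding protein that keeps male germ cells undifferentiated (chr7:18987524-18988962), had no peak in any list and a single nucleosome call, centred 1 bp before its start, in SV129 ES. This depended on the flank. With flanks of 2 kb it had a peak in SV129 MS and WT MS and none in cKO MS, and nucleosome calls in all 3 MS lists, SV129 RS and cKO ES as well.

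Of the regulators of differentiating spermatogonia, Nanos3 and Sohlh1 had no peak, and Sohlh2 and Kit had peaks that reached their starts. Nanos3, an RNA-binding protein of early germ cells (chr8:84173733-84176552), had nucleosome calls at ES only, 3 in SV129, 1 in WT and 6 in cKO. Sohlh1, a basic helix-loop-helix factor (chr2:25842995-25847248), had calls at MS and RS in cKO alone. It had 0, 0 and 4 calls in SV129, WT and cKO at MS, 0, 0 and 6 at RS, 6, 0 and 6 at ES, and 0, 0 and 1 at Sp. Of the genes with no call in the intact lists at MS and RS, 4.29% had calls in both cKO lists. The Sohlh1 calls at MS and RS did not all carry the most common score of their list.

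Sohlh2, the partner of Sohlh1 (chr3:55182044-55209957), had its main site on its start, chr3:55181868-55182195. The site covered 90 bp in SV129 and 181 bp in WT at MS, 153 and 328 bp at RS, and nothing in cKO. WT RS had further sites at chr3:55182992-55183087 and in the gene body. Nucleosome calls followed the same groups: at MS 4, 7 and 0 in SV129, WT and cKO, and at RS 4, 1 and 0. They were spread otherwise at ES, with 8, 18 and 19 calls. Sohlh2 was the only one of the 10 genes without a nucleosome call in cKO at both MS and RS although SV129 and WT had calls at both. The share of all genes with this pattern was not computed. Of all genes with a WT call, 10.2% had none in cKO at MS and 19.1% had none at RS.

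Kit, the receptor for stem cell factor (chr5:75574987-75656722), had a start site in WT lists only. That site, chr5:75574859-75575083, covered 225 bp in WT MS and 171 bp in WT RS, and neither SV129 nor cKO had it. The difference between SV129 and WT was here as large as that between cKO and WT. Deep in the gene, 73939 bp from the start, a site at chr5:75648926-75649122 covered 112 bp in SV129 RS and 138 bp in WT RS and appeared in no MS list. Male germ cells are known to transcribe a truncated Kit from a promoter inside the gene in spermatids. Exons were not analysed here, so the site was not placed relative to that promoter. Sites open at RS in both intact lists and in no MS list were 2 of 32 (6.25%), the other being in Stra8, and 8.15% of the sites of all genes. Nucleosome calls at Kit numbered 0, 1 and 0 at MS and 22, 8 and 7 at RS. Within 1 kb of the start, 12, 5 and 3 of those RS calls were centred. The low MS and higher RS number was thus shared by the 3 backgrounds.

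The 2 genes of meiotic entry differed from each other. Dazl, an RNA-binding regulator of translation that licenses germ cells for meiosis (chr17:50279393-50293620), had the widest open stretch at its start and was the only one of the 10 with a peak in every MS and RS list. This was not particular to Dazl beyond the 10: Meioc, Rec8, Hormad1, Rbm46, Etv5 and Taf4b of the pathway lists below also had one in each. The share of all genes with this pattern was not computed. The Dazl peaks covered 685 bp in SV129, 837 bp in WT and 206 bp in cKO at MS and 617, 776 and 81 bp at RS. The SV129 and WT values lay near each other at both stages, and the cKO values lay below both. The peaks form 2 sites. The site on the start, chr17:50293528-50293854, covered 305, 308 and 206 bp at MS and 213, 307 and 0 bp at RS. The site just inside the gene, chr17:50292667-50293285, covered 380, 529 and 0 bp at MS and 404, 469 and 81 bp at RS. The cKO thus kept the start site at MS and the inner site at RS. Nucleosome calls of Dazl at MS, 14, 19 and 5, all lay within 1 kb of the start, as did the 10, 7 and 4 at RS.

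Stra8, the retinoic acid target that opens the meiotic programme (chr6:34920163-34939344), had almost no open site at MS. Its peaks covered 83 bp in SV129 MS and none in WT or cKO MS. At RS they covered 96 bp in SV129, 518 bp in WT and none in cKO. The site nearest its start, chr6:34920667-34920933, ended 15 bp before it and was in WT RS alone, with 267 bp. The start used here is base 34920948, inside the gene span that begins at 34920163, so this site lies within that span. Of the 32 sites, 9 were in WT RS alone (28.1%), as were 21.9% of all sites. Another Stra8 site at chr6:34922080-34922217 covered 96 bp in SV129 RS and 138 bp in WT RS, and the last, at chr6:34927333-34927445, covered 83 bp in SV129 MS and 113 bp in WT RS. The Stra8 promoter also drives the Cre of the cKO, and the sources used here do not give the construct's sequence. Reads from a transgene copy and from the gene itself cannot be told apart in these lists. No cKO list had a peak at Stra8. Its nucleosome calls numbered 1, 9 and 4 at MS, 6, 0 and 3 at RS, 19, 16 and 16 at ES and 0, 0 and 3 at Sp.

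**Figure D3:**
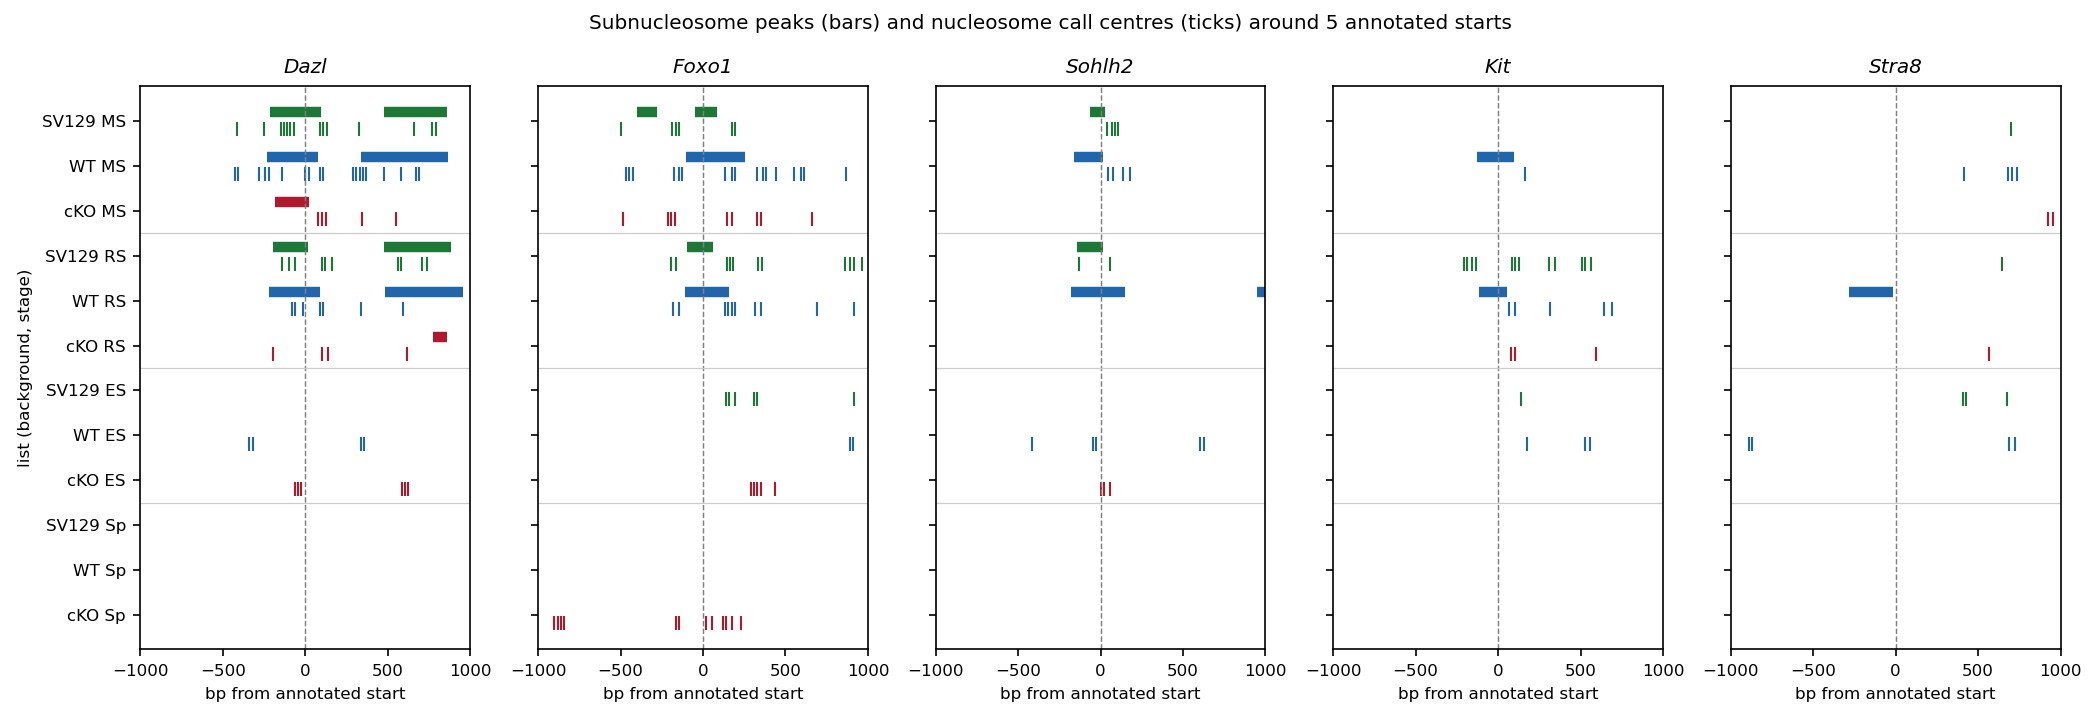
Subnucleosome peaks and nucleosome calls within 1 kb of the annotated starts of Foxo1, Sohlh2, Kit, Dazl and Stra8, by distance from the start in the direction of the gene, 1 row for each of the 12 stages and backgrounds, with bars for peaks and ticks for call centres. Dazl has a peak in all MS and RS rows, Foxo1 and Sohlh2 in the 4 intact MS and RS rows and Kit in the WT rows of these stages alone, and Stra8 has one in WT RS, which ends 15 bp before its start.

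The comparison of cKO with WT asks how open sites and nucleosome calls differ when Gcn5, a histone acetyltransferase, is removed. At MS 3 of the 6 genes with a peak in WT (Foxo1, Sohlh2 and Kit) had none in cKO, against 29.6% of all genes with a WT peak, and 1 (Kit) had none in SV129, against 8.53%. At RS 6 of 7 had none in cKO, all but Dazl, against 76.7% of all genes, and 1 (Zbtb16) had none in SV129, against 15.2%. In sperm the single gene with a WT peak, Zbtb16, had none in cKO, against 81.9%, and it had one in SV129, where 19.3% of all genes had none. The share of these genes at RS lies near the background. Stra8 alone had a peak in SV129 MS and none in WT MS, and no gene of the 10 had a peak in cKO without one in WT at the same stage. When the WT list was reduced by score to the length of the cKO list, WT kept 3 of the genes at MS (Zbtb16, Gfra1 and Dazl, the same 3 as in cKO) and 1 at RS (Dazl), and 0 genes were then absent from cKO at either stage. At Sp the reduced WT list kept Zbtb16, so 1 gene was absent from cKO there with or without the reduction.

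The scores that the authors deposited with the WT peaks, on a scale whose direction is not stated either, were highest at Dazl. Reading a higher score as a stronger peak, here and in the lists reduced by score, is an assumption. Its start site scored 55.3 at MS, above 92.1% of that list, and its inner site 55.6 at RS, above 93.8%. These are the sites that cKO kept at the same stage. The other WT MS sites kept in cKO scored 39.4 and 22.9 at Gfra1 and 27.9 at Zbtb16. Among the WT MS sites not in cKO the highest was 33.2, the farther Gfra1 site, followed by the inner Dazl site at 28.8. The MS list median was 22.1, and the start sites of Foxo1 (20.9), Sohlh2 (20.4) and Kit (10.8) lay below it. At RS, with a list median of 17.0, the sites not in cKO reached 45.0 at the Dazl start, 36.8 at Foxo1 and 30.9 at the site of Kit 14604 bp into the gene, while the 3 Stra8 sites scored 8.56, 12.0 and 13.1. Kept and absent sites overlapped in score at MS.

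Most of these genes had nucleosome calls in cKO as well as in the intact lists. A call at MS was listed for 6 genes by SV129, 7 by WT and 6 by cKO, against 65.1%, 75.1% and 73.2% of all genes. At RS the counts were 7, 6 and 7 (68.4%, 63.1% and 63.9%), and at ES 10, 8 and 9 (78.9%, 80.3% and 78.5%). Within 1 kb of the start, 5, 6 and 5 genes had a call at MS (54%, 61.2% and 55.5% of all genes), 5, 3 and 3 at RS (53.1%, 49.8% and 33.5%), and 5, 5 and 6 at ES (40%, 36.5% and 38.5%). In sperm it was 0, 0 and 1, the 1 being Foxo1 (7.73%, 5.37% and 37.3%). Of the genes with a WT call, Sohlh2 and Kit had none in cKO at MS (2 of 7, against 10.2% of all genes) and Sohlh2 had none at RS (1 of 6, against 19.1%). In SV129 the counts were 1 of 7 at MS, against 15.6%, and 0 of 6 at RS, against 8.47%. At ES no gene with a WT call lacked one in cKO (background 11.4%) or in SV129 (10.7%). ES was the stage with the most calls: per 10 kb of sequence the 10 genes held 4.12 calls in SV129, 3.40 in WT and 4.76 in cKO, and all genes 2.41, 2.61 and 2.54. At MS the densities were 1.90, 2.80 and 2.87 in the 10 genes and 1.38, 2.19 and 1.77 in all genes. At RS they were 1.44, 0.53 and 1.19 against 1.31, 1.30 and 1.03. With Gfra1 counted, WT RS was thus the one of these 9 lists in which the 10 genes held fewer calls per 10 kb than all genes. Gfra1 alone held 94 of the 125 MS calls in SV129, 109 of 184 in WT and 133 of 189 in cKO. The MS densities therefore rest largely on 1 gene, and no density was computed without it.

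In sperm the backgrounds parted. Calls were present at 2 of the 10 genes in SV129 (Gfra1 and Kit), 1 in WT (Gfra1) and 8 in cKO, against 10.4%, 8.79% and 71.7% of all genes. In cKO Sp Zbtb16 had 20 calls, Foxo1 21, Gfra1 18, Kit 15, Sohlh2 7, Stra8 3 and Dazl and Sohlh1 1 each. Nanos2 and Nanos3 had none. Per 10 kb this was 1.31 calls in the 10 genes, below the 1.53 of all genes. The SV129 and WT values were 0.0456 and 0.0152. The cKO Sp list has 70.1% of its calls at 1 score. Without calls at that score, 5 genes kept a call in cKO Sp (Zbtb16, Gfra1, Foxo1, Sohlh2 and Kit), and none in SV129 Sp or WT Sp.

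Where nucleosome calls lay relative to the open sites changed with stage and background. Windows of 1 kb around the 32 sites make up 8.74% of the sequence of the 10 genes. At MS they held 68.8% of the genes' calls in SV129 (86 of 125), 59.8% in WT (110 of 184) and 38.1% in cKO (72 of 189), against 78.5%, 61.8% and 46.6% over all genes. At RS they held 63.2% (60 of 95), 82.9% (29 of 35) and 20.5% (16 of 78), against 56.2%, 66.8% and 25.9%. The cKO share was the lowest at both stages, in the 10 genes as in all genes. At ES the shares were 13.7%, 11.6% and 15.0%, near 13.1%, 11.9% and 13.0% over all genes, and in cKO Sp 18.6%, near 19.6%. The calls of the intact sperm lists, 3 in SV129 and 1 in WT, lay outside the windows, where 67.7% and 58.8% of those of all genes lay inside. The sites themselves came mostly from intact lists: 5 of the 32 were in a cKO list and none in cKO lists alone. WT RS had 20 of them, cKO MS 4 and cKO RS 1. A list that defined more of the sites can have more calls near them by construction, so the shares do not compare the backgrounds on equal terms.

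**Figure D4:**
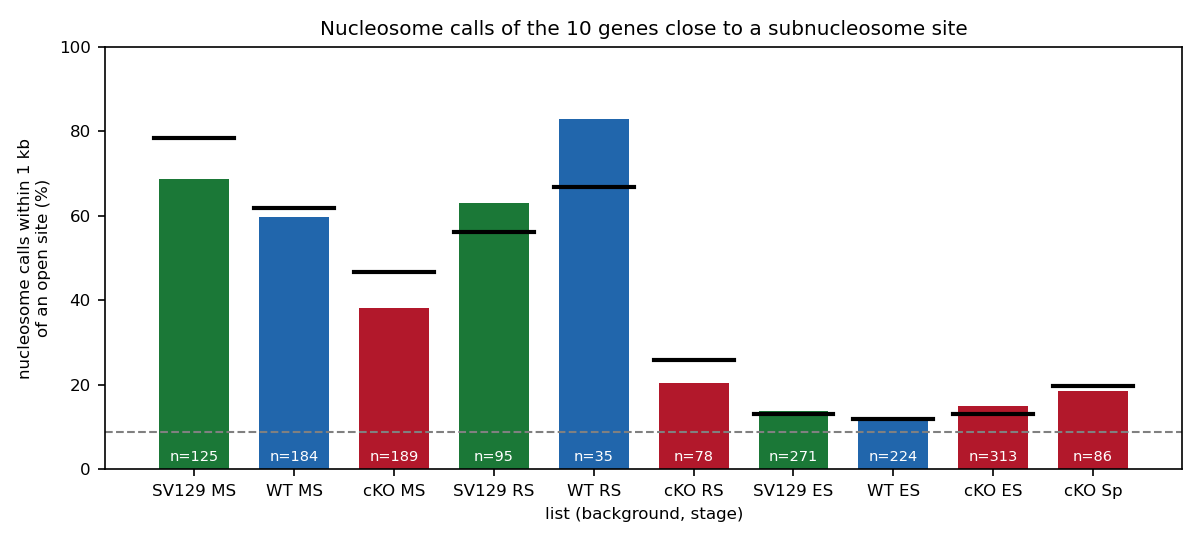
Percent of nucleosome calls of the 10 genes centred within 1 kb of an open site, for each list with more than 3 such calls (n, number of calls), with black lines for all genes and a dashed line for the share of the 10 genes' sequence in the windows. The cKO bar is the lowest of each of the MS and RS groups, at 38.1% and 20.5%, but the sites were defined mostly by peaks of the intact lists.

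Of the 32 sites, 14 were in 1 list only (43.8%, against 41.7% of all sites), 9 were in MS lists only (28.1%, against 19.4%) and 11 in RS lists only (34.4%, against 32.1%). Sites in any cKO list were 5 of 32 (15.6%), against 26.9% of all sites. Both intact lists shared 11 sites at MS (34.4%, against 39.4%) and 6 at RS (18.8%, against 36.7%). The gene sets from which these shares come differ in size and length, and the shares were not tested.

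The wider pathways gave the same order of the lists. Of 20 genes of undifferentiated spermatogonia, none of them among the 10 above, 12 had a peak at MS in SV129, 14 in WT and 4 in cKO, and 9, 13 and 2 had one at RS. Of 10 genes listed under differentiating spermatogonia the counts were 8, 8 and 3 at MS and 6, 8 and 0 at RS. These 10 include Kitl, which encodes the ligand of the receptor Kit and had a peak in WT RS only. Of 17 genes listed under retinoic acid synthesis, transport and reception the counts were 11, 11 and 4 for MS, then 7, 9 and 0 for RS. The retinoic acid list also holds Gdnf, the Sertoli cell signal, which had a peak in SV129 MS (103 bp) and WT MS (306 bp) only. The 14 genes of meiotic entry and early meiosis stood higher, with 14, 14 and 12 at MS and, at RS, 14, 14 and 5. The background shares of all genes are those given above, 44.9% in cKO MS and 14.9% in cKO RS. None of these genes had a peak at ES.

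At RS, 11 of the 13 undifferentiated-cell genes with a WT peak had none in cKO, among them Ddx4, a germ cell RNA helicase, with 580 bp in WT, and Id4, a marker of stem cells, with 393 bp. Etv5, a GDNF-induced transcription factor, and Taf4b, a germ cell TFIID subunit, kept 158 and 187 bp in cKO. All 8 genes of the differentiating-cell list with a WT peak, Kitl (376 bp) among them, had none in cKO. The widest were Lin28b with 1209 bp and Dmrt1, a regulator of the mitosis to meiosis choice, with 520 bp. For retinoic acid it was 9 of 9, led by the synthesizing enzymes Aldh1a1 (833 bp) and Rdh10 (553 bp) and the receptor Rara (472 bp). For meiotic entry it was 9 of 14. Of all genes with a WT RS peak, 76.7% had none in cKO. The counts of 11 of 13, 8 of 8 and 9 of 9 lie above that share and 9 of 14 lies below it. These small lists were not tested against it. In SV129 RS the genes with a WT peak and none in SV129 numbered 5 of 13, 2 of 8, 2 of 9 and 0 of 14 in the same order, against 15.2% of all genes. Tex14, a protein of germ cell bridges, had 2206 bp in WT and the synaptonemal complex gene Sycp1 1168 bp, both with none in cKO, whereas Rec8, the meiotic cohesin subunit, kept 138 bp and Meioc, which supports the meiotic programme through RNA regulation, 100 bp. In sperm, Etv5 had 346 bp in SV129 and 345 bp in WT and none in cKO, the retinoid receptor Rxra had 338, 249 and 0 bp, and Taf4b had 458, 103 and 173 bp.

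**Figure D5:**
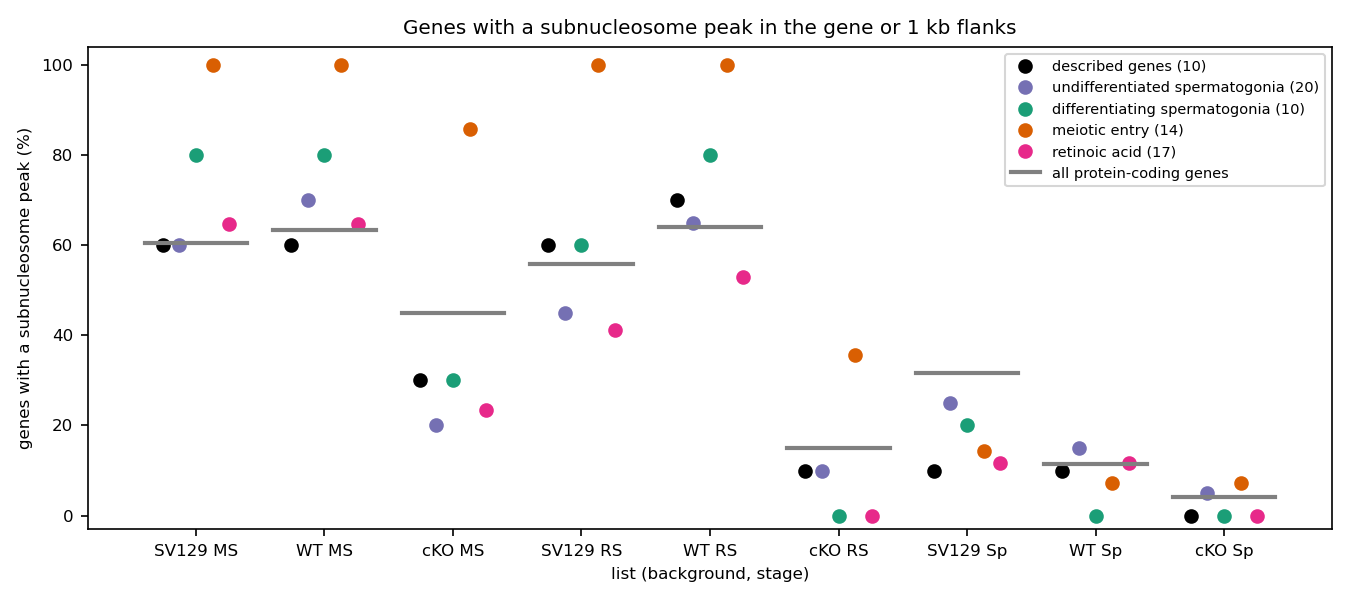
Share of genes with a subnucleosome peak, in percent, for the 10 described genes, the 4 pathway lists and all genes (grey lines), in the MS, RS and Sp lists, with the number of genes in parentheses. Meiotic entry genes are highest at MS and RS, and the cKO shares lie below the intact shares of the same stage at MS and RS.

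The bases covered over the 12 subnucleosome lists were compared between each of the 7 genes with peaks and 39 genes of the pathway lists. The closest were Rxra (Pearson r = 0.90) and Etv5 (0.69) for Zbtb16, Rxrb (0.97) and Rbp4 (0.97) for Gfra1, and Bhmg1 (0.98) and Tex14 (0.95) for Foxo1. For Sohlh2 they were Dmrt1 (0.98) and Mei4 (0.97), for Kit Dmrt1 (1.00) and Rdh10 (0.96), for Dazl Lin28b (0.97) and Id4 (0.97), and for Stra8 Aldh1a1 (0.99) and Rdh10 (0.96). The 12 points share the lists and their very unequal lengths, so these values describe likeness only. Zbtb16 was the gene whose closest values were lowest, its sperm peaks being shared with Rxra and Etv5.

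Markers of other cells were examined beside these counts, since fractions of 85% purity can hold other cells. Of 7 Sertoli cell markers, those with a peak in SV129, WT and cKO numbered 4, 3 and 1 at MS (60.5%, 63.4% and 44.9% of all genes), and at RS 2, 3 and 0 (55.8%, 64.1% and 14.9%). Of 5 markers of epididymal epithelium, Epcam and Krt8 had a peak in each of the 3 MS lists, cKO included. Krt18, Crisp1 and Lcn5 had no peak in any list of any stage. In WT RS the peak at Krt8 covered only 4 bp of its region. The number of these markers with a peak at RS was 1, 2 and 0. Of 6 Leydig cell markers it was 1, 1 and 0 at both stages, and of 5 blood cell markers 0, 2 and 0 at MS and 1, 2 and 0 at RS. Pachytene markers were at 5, 5 and 5 of 5 at MS and 5, 5 and 2 at RS, and spermatid markers at 2, 3 and 1 of 5 at MS and 5, 5 and 0 at RS. Pachytene markers thus did not set the intact MS lists apart from the intact RS lists, in which they covered more bases (1537 bp in SV129 and 1921 bp in WT at MS, 1861 and 2761 bp at RS). Spermatid markers had more members with a peak at RS in both intact backgrounds and none in cKO RS. The part of other cells in the peaks of the 10 genes was not tested.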

How the data were processed

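ATAC-seq of 34 libraries was examined through 24 lists deposited by the authors, 1 of nucleosome calls and 1 of subnucleosome peaks per group. Per the submitters' processing notes, STAR 2.5.2a and MACS2 2.1.0.20140616 were used, with no role given, on GRCm38 (mm10). The sources used here do not give how fragments were divided, calls made or libraries pooled. The score that the authors deposited is of unstated meaning for nucleosome calls, at least 3.01 for WT and cKO peaks, and 0 throughout for SV129 peaks. Read depth is unknown, so no interval for depth could be given. SV129 reactions held 100000 cells (MS, Sp) or 200000 (RS, ES), per the labels' protocols.

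Intervals overlapping a gene with 1 kb flanks by 1 bp were collected, and peaks of the 12 lists overlapping one another were merged into sites. A gene with at least 1 interval counts as having one. Genes came from a GRCm38.p6 table without exons, starts and promoters from RefSeq. The start used was that of the first promoter listed for a gene, which at Gfra1 and Stra8 lies inside the gene span. Python 3.11.15, pandas 2.3.3, NumPy 2.4.6 and matplotlib 3.10.9 were used, and the overlap functions were checked on simulated intervals. All 10 genes are named. Of pathway genes, those peaked in WT RS and not in cKO RS, or in sperm, were eligible for naming, at most 5 a list by bases in WT, and genes kept in cKO were named after their values were seen. Likeness was computed for genes covered in at least 3 lists. The genes and lists were chosen with earlier results of these data known. Alternatives tried were other flanks, a larger overlap, gene ends alone, score thresholds and merging of nearby peaks.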

Additional observations from a re-analysis of the deposited data

Results flagged for a closer look

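The number of the 10 genes with a nucleosome call differed between cKO and WT in opposite directions at MS and Sp. At MS the difference, cKO minus WT, was -1 (6 against 7), and at Sp it was 7 (8 against 1). Each is a difference between single lists, and the difference between the stages was not tested. Over all genes the shares were 73.2% in cKO and 75.1% in WT at MS, and 71.7% and 8.79% at Sp.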

How the results depend on the processing

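No paired analysis was possible because each group has 1 list per class and no values per library, and for the same reason no replicate could be left out. With flanks of 500 bp or 2 kb, or with at least 50% of an interval inside the region, the number of genes with a call stayed within 1.5 times in each list. The genes were not all the same: with flanks of 2 kb Nanos2 had a peak in SV129 MS and WT MS, and 4 genes in place of 3 were absent from cKO at MS. Merging peaks within 150 bp gave 31 sites in place of 32. Counting gene ends only, genes with a peak numbered 3 in SV129 MS, 1 in cKO MS, 3 in SV129 RS, and 0 in SV129 Sp and WT Sp. Genes with a nucleosome call then numbered 3 in WT RS, 4 in cKO RS, 6 in SV129 ES, 0 in SV129 Sp and WT Sp, and 3 in cKO Sp. With the upper 50% of peaks by score, 3 genes had a peak in WT MS and 0 in cKO RS. With WT reduced by score to the length of the cKO list, 3 genes had a peak in WT MS and 1 in WT RS, and 0 were absent from cKO at MS and 0 at RS, where the list reduced has fewer peaks by construction. At Sp 1 gene, Zbtb16, was absent from cKO with the reduced list too. Without calls at the most common score, 0 genes had a nucleosome call in SV129 Sp and WT Sp and 5 in cKO Sp. The other causes were not tested. Depth is unknown, so the absence of a gene from a list does not show closed chromatin.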
